A study of Homo sapiens with 9 samples.

Results

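The expressed ZNF genes are the human genes whose symbol is ZNF followed by a number and at most 1 letter, and whose probe set had a mean log2 signal of at least 5 over the 9 arrays. One probe set was kept per gene, the one with the highest mean. The rule found 258 of the 471 ZNF genes with a named probe set, among 14884 named genes in all. The other 213 lay below the level. The members were chosen by that mean over all arrays, so their levels are a description and carry no test. A gene near the level can pass it through the group where it is high. Among the genes named below, ZNF449, ZNF354C, ZNF334, ZNF429, ZNF883, ZNF223, ZNF793, ZNF704 and ZNF503 had agonist means of 4.06 to 4.90, under the level. They passed it through GPR39 and mock cells, so their falls in agonist cells are not independent of the choice. The last genes inside the level were ZNF354C at 5.03, ZNF385A at 5.02 and ZNF594 at 5.02, and the first outside it were ZNF569, ZNF524 and ZNF117, each at 5.00 after rounding.

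RNA came from HEK293, a human embryonic kidney cell line, and was measured on single-colour Affymetrix arrays, 3 in each of 3 groups. The agonist group is labelled as overexpressing GPR39 with TC-G-1008 at 1 uM, and its labels do not mention cumate. The GPR39 group is labelled as overexpressing GPR39 with cumate at 0.03 mg/mL. The mock group is labelled as naive or mock cells without cumate. GPR39 is a receptor that couples to G proteins and responds to zinc, TC-G-1008 is a synthetic agonist of it, and cumate is the inducer of a gene switch. No group received cumate or agonist without the receptor label, so receptor and cumate cannot be told apart in GPR39 against mock. The agonist cannot be told apart from a possible lack of cumate in agonist against GPR39. In agonist against mock the receptor label and the agonist change together, so they cannot be told apart there. The labels call the replicates biological without naming separate cultures, so a p-value here reflects only how far these arrays spread, which may be technical.

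ZNF proteins hold zinc fingers, small folds around a zinc ion, most of which bind DNA. Many carry a KRAB domain, which recruits the corepressor TRIM28 (KAP1) and with it enzymes that lay down repressive chromatin, often at transposable elements. Others carry a SCAN domain, through which such proteins pair, and some carry neither and act as activators, splicing factors or ribosome assembly factors. Genes of the KRAB class lie in clusters, most of them on human chromosome 19, and arose by repeated duplication.

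Of the 258 members, 159 were classed as KRAB, 8 as SCAN and KRAB, 6 as SCAN and 69 as neither, while 16 were left unclassed. These classes come from general knowledge of the family and not from the files. Chromosome 19 held 128 members, chromosome 16 held 17 and chromosome 7 held 17. The 5 members with the highest mean signal were ZNF146 at 8.95, ZNF711 at 8.88, ZNF207 at 8.86, ZNF121 at 8.81 and ZNF100 at 8.46. These values do not rank the genes against each other, since probe sets bind with different strength. All 258 passed the filter on low values, and no member had an array at or below the 40th percentile of that array. Near-identical copies are common in the family, and how far the probes of a member also bind its paralogs was not tested.

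The stretches before the annotated starts of 5 members are printed as examples of the patterns below, among the members with an entry in the RefSeq promoter table. ZNF800 and ZNF460 were higher in agonist cells, ZNF429 and ZNF334 were lower there, and ZNF711 was lowest in GPR39 cells. Each is the 150 bases 5′ of the first listed RefSeq start on the gene's own strand (GRCh38.p14), with the searched motifs in capitals. ZNF800 is at chr7:127392709-127392858 on the minus strand, ZNF460 at chr19:57279832-57279981 on the plus strand, ZNF429 at chr19:21505452-21505601 on the plus strand, ZNF334 at chr20:46513560-46513709 on the minus strand and ZNF711 at chrX:85243841-85243990 on the plus strand.
ZNF800: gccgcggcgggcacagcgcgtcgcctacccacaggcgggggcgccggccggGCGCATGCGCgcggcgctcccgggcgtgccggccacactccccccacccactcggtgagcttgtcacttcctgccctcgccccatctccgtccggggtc
ZNF460: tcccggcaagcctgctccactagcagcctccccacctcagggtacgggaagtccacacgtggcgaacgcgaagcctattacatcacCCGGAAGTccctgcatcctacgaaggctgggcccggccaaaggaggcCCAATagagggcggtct
ZNF429: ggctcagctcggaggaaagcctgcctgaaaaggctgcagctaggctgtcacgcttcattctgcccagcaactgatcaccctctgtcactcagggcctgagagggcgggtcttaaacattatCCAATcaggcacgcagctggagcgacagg
ZNF334: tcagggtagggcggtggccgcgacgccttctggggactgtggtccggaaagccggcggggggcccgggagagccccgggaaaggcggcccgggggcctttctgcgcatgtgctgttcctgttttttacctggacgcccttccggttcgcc
ZNF711: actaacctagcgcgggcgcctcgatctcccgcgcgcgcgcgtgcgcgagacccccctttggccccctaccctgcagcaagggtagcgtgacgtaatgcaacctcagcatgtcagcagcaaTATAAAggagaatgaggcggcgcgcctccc
The capitals mark an NRF1 site in ZNF800, where the letters match on either strand and overlap, an ETS site followed by a CCAAT box in ZNF460, a CCAAT box in ZNF429 and a TATA box in ZNF711. In ZNF334 none of the searched letters was found in the printed window.

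Motifs of 9 kinds were searched on either strand in the 250 bases before the start, for the 231 members with an entry in the RefSeq table. More than 1 start was listed for 46 members. Only the first listed start of each gene was used, and other starts were not searched. The ETS motif CCGGAAGT was in 15.6% of the members, against 8.52% of the 5355 named genes with a mean of at least 5 and 3.64% of all 27305 genes of the table. The CCAAT box, which binds NF-Y, was in 43.3%, against 37% of the named genes at that level. The core of the site of ZNF143, itself a member, spelled ACTACAATT, was in 2.6% of the members, against 0.728%. The YY1 motif AAGATGGCG was in 3.03%, against 1.25%. The cAMP response element TGACGTCA was in 4.76% against 3.23%, and the AP-1 motif TGANTCA in 4.33% against 3.16%. The TATA box TATAAA was in 3.9% against 4.61%, the NRF1 motif CGCATGCGC in 3.46% against 3.88% and the EGR motif GCGTGGGCG in 0.866% against 1.4%. The overlap of motifs with one another was not resolved. Median GC content was 61.6% in the members and 65.6% in the named genes at that level. A match is a description of the letters and not of a bound site.

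On single arrays the median log2 signal of the members ran from 5.97 to 6.08 in the agonist group, from 5.99 to 6.02 in the GPR39 group and from 6.03 to 6.06 in the mock group. The median SD of a member over 3 arrays was 0.12 in agonist cells, 0.08 in GPR39 cells and 0.11 in mock cells. Across the 258 members, which are not independent replicates, mock array 1 correlated on average at 0.971 with the other mock arrays and at 0.966 with the GPR39 arrays. Across all probe sets the order was the other way, at 0.984 and 0.986 with the other mock arrays and 0.988 to 0.989 with the GPR39 arrays. Counts that rest on mock cells are given below with and without mock array 1.

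The deposited values hold exact ties between arrays of a group. At least 2 of the 3 arrays had the same value for 17 of the 258 members in agonist cells, 26 in GPR39 cells and 15 in mock cells. All 3 were equal for ZNF410 in agonist cells, for ZNF250, ZNF652, ZNF77 and ZNF777 in GPR39 cells and for ZNF385A in mock cells. Among all probe sets tested, at least 2 arrays were equal for 8.59% in agonist, 13.2% in GPR39 and 10.1% in mock cells. What produced the ties is not known, so the SDs of such genes, and the SEs and p-values that rest on them, may understate the spread.

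The label of the GPR39 overexpression could not be checked here, because the GPR39 probe set stayed below the filter, at 2.58 ± 0.11 in agonist cells, 2.58 ± 0.04 in GPR39 cells and 2.47 ± 0.07 in mock cells (SD, n = 3 each). Of the HEK293 markers, IRS4, LIN28B and VIM had group means of 6.94 to 10.54 and PAX2 of 3.61 to 4.02. Of these 4 markers 3 were lower in agonist than in mock cells, IRS4 by -0.85, VIM by -0.46 and LIN28B by -0.30 (limma, adjusted p = 0.0053, 0.00368 and 0.0174), and PAX2 changed by -0.42 without a call. LIN28B was lower in agonist than in GPR39 cells by -0.41 (adjusted p = 0.00751), and IRS4 was lower in GPR39 than in mock cells by -1.03 (adjusted p = 0.0162). The leukocyte markers TYROBP, LAPTM5 and CD14 had group means of 2.76 to 3.53, the fibroblast markers LUM and DCN 1.63 to 2.03 and the hepatocyte markers TTR, APOA1 and ALB 2.23 to 4.47. The part of any of these markers in the changes of ZNF genes was not tested.

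Differences between groups are log2 changes from limma's moderated test over all 9 arrays, with adjustment over 33376 probe sets, and a gene is called where the adjusted p is under 0.05. All 3 comparisons share groups in pairs, so their values are set side by side and not treated as independent. In GPR39 against mock, 1 member was higher and 4 were lower, or 1.94% of 258. The share over all 33376 probe sets was 1.17% (0.749% higher and 0.422% lower), and over the 6871 named probe sets with a mean of at least 5 it was 2.31% (1.48% higher and 0.830% lower). In agonist against GPR39, 15 were higher and 19 lower, or 13.2%. That compares with 9.06% of all probe sets (3.12% higher and 5.95% lower) and 20.2% of the named ones at that level (5.36% higher and 14.8% lower). In agonist against mock, 19 were higher and 37 lower, or 21.7%, against 15.0% of all probe sets (6.11% higher and 8.94% lower) and 31.5% of the named ones (11.1% higher and 20.4% lower). Thus the members' share lay above that of all probe sets and below that of the named probe sets with a mean of at least 5 in every comparison. Of the 258 members, 62 were called at least once and 196 in none. The share called at least once was not counted over all probe sets, so the 62 does not set the members apart.

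**Figure D1:**
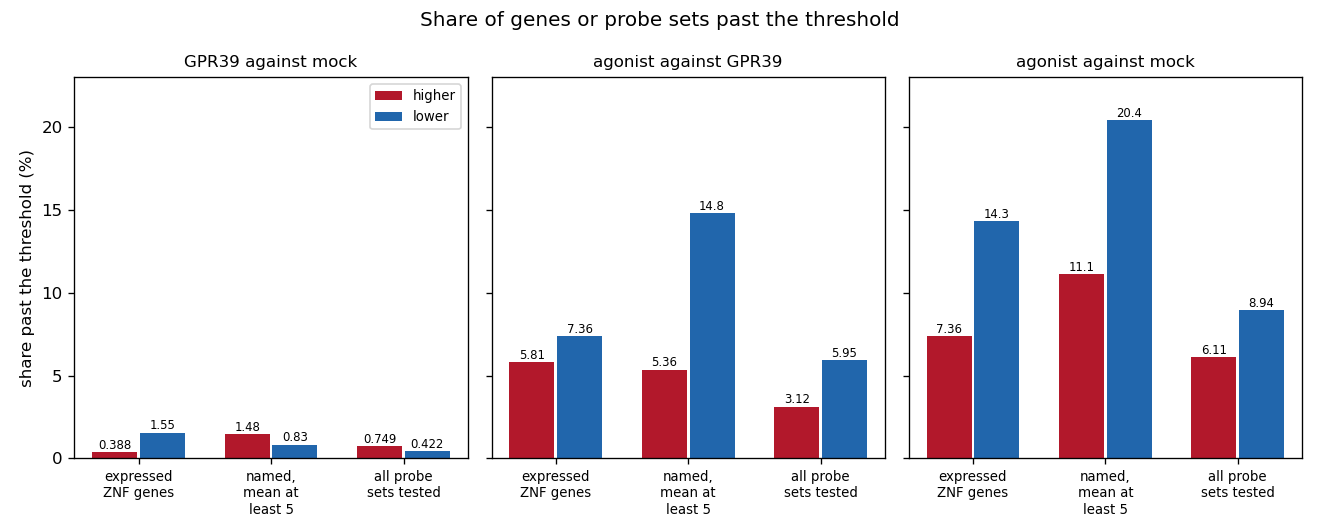
Share called in percent (y axis) for the expressed ZNF genes, the named probe sets with a mean of at least 5 and all probe sets tested, with a panel per comparison, red bars for higher and blue bars for lower. Lower calls made up 14.3% of the members in agonist against mock, against 20.4% of the named probe sets at that level and 8.94% of all probe sets.

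The balance of higher and lower members moved with the scaling in the agonist comparisons. In agonist against mock the 19 higher and 37 lower members became 28 and 26 when arrays were centred on their 75th percentile, 22 and 29 after quantile normalization and 18 and 44 with median centring. In agonist against GPR39 the counts were 10 higher and 21 lower with median centring, 15 and 17 with 75th-percentile centring and 17 and 18 after quantile normalization. In GPR39 against mock they were 1 and 4 under each of these scalings. The median change of the members was -0.05 in GPR39 against mock, -0.03 in agonist against GPR39 and -0.06 in agonist against mock. The medians of all probe sets tested were 0.006, 0.014 and 0.017, and those of the named probe sets with a mean of at least 5 were 0.016, -0.075 and -0.066. With members chosen at a mean of at least 5, their medians thus lay below those of all probe sets in each comparison. They lay above those of the named ones at that level in the agonist comparisons. The order depended on the level. At the higher level tried below, the members' medians in the agonist comparisons were positive and above those of all probe sets. The median in GPR39 against mock stayed below. Most of the lower calls in agonist against mock lay among the dimmer members which that higher level left out. With 75th-percentile centring the members' medians were 0.01, -0.01 and 0.01, while the medians of all probe sets moved along with them to 0.063, 0.028 and 0.088.

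**Figure D2:**
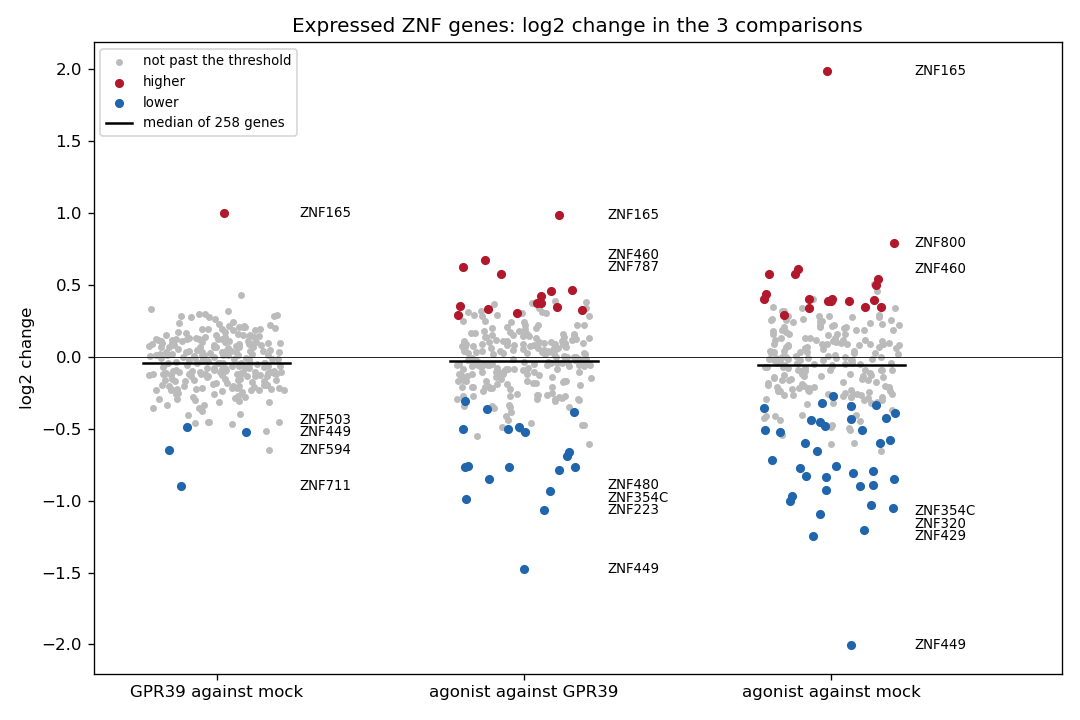
Log2 change (y axis) of each of the 258 members in the 3 comparisons (x axis), with red points for genes called higher, blue for genes called lower, grey for the rest and a black line at the median of the members. ZNF165 is the highest point in each comparison, at 1.00, 0.98 and 1.98, and ZNF449 the lowest in the agonist comparisons, at -1.48 and -2.00, while ZNF711 is the lowest in GPR39 against mock at -0.90.

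In cells labelled as overexpressing GPR39 with cumate, 1.94% of the members were called against mock cells. This lay between the 1.17% of all probe sets and the 2.31% of the named ones with a mean of at least 5. ZNF165, a SCAN protein known as a cancer/testis antigen, was higher, and ZNF711, ZNF594, ZNF449 and ZNF503 were lower. The changes of these 5 ran from a gain of 1.00 to a loss of 0.90 on the log2 scale. Of the 159 KRAB members and of the 128 members on chromosome 19, 0 were called, where the share over all probe sets was 1.17%. Without mock array 1, 2 of either set were lower, beside 3.96% of all probe sets, so these counts do not set either apart.

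ZNF711, an X-linked gene whose mutations cause intellectual disability and whose protein binds promoters with CpG islands, had log2 signals of 8.30, 8.58 and 8.39 in GPR39 cells, against 9.19, 9.30 and 9.48 in mock cells. Every GPR39 array lay below every mock array. The change was -0.90 ± 0.10 (SE, adjusted p = 0.00826), a 1.87-fold lower signal. Agonist cells lay between the other groups, at 8.91, 8.94 and 8.80. They were higher than GPR39 cells by 0.46 ± 0.10 (adjusted p = 0.032) and lower than mock cells, by -0.44 ± 0.10 (adjusted p = 0.0254). ZNF711 was the only member with opposite calls in these comparisons. Its call in GPR39 against mock was lost without GPR39 array 3 (adjusted p = 0.0537). The call against GPR39 cells was lost on leaving out any of 6 arrays (up to 0.107), and that in agonist against mock on leaving out any of 4 (up to 0.0788).

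ZNF165, on chromosome 6, had log2 signals of 7.42, 7.22 and 7.33 in agonist cells, 6.23, 6.22 and 6.57 in GPR39 cells and 5.42, 5.23 and 5.37 in mock cells. The 3 groups did not overlap. It was higher in GPR39 than in mock cells by 1.00 ± 0.11 (adjusted p = 0.0076), in agonist than in GPR39 cells by 0.98 ± 0.11 (adjusted p = 0.00238) and in agonist than in mock cells by 1.98 ± 0.11 (adjusted p = 3.02e-05), a 3.95-fold higher signal. A dimmer probe set of the same gene, with a mean of 3.40, changed by -0.02, 0.08 and 0.07 in these comparisons and was called in none (adjusted p = 0.976, 0.819 and 0.84). With the mean of its probe sets in place of the brighter one, ZNF165 changed by 0.49 in GPR39 against mock and was not called (adjusted p = 0.0964), and no member was then higher there.

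ZNF449, a SCAN gene on chromosome X, had 4.02, 4.02 and 4.15 in agonist cells, 5.54 in each of the 3 GPR39 arrays and 6.10, 5.99 and 6.11 in mock cells. The GPR39 arrays, of which 2 were equal to 4 decimals, had an SD of 0.0003, far under the median SD of 0.08 in that group. Agonist cells were lower than GPR39 cells by -1.48 ± 0.07 (SE, adjusted p = 2.35e-05), a 2.79-fold difference, and than mock cells by -2.00 ± 0.07 (adjusted p = 1.76e-06), a 4.01-fold difference. GPR39 cells were lower than mock cells by -0.52 ± 0.07 (adjusted p = 0.0124), a call that was lost on leaving out any of 4 arrays (adjusted p up to 0.0688). The other calls of ZNF449 were kept without each array in turn.

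ZNF594 had 4.61, 4.48 and 4.55 in agonist cells, 4.80, 5.02 and 4.97 in GPR39 cells and 5.51, 5.49 and 5.74 in mock cells. It was lower in GPR39 than in mock cells by -0.65 ± 0.09 (adjusted p = 0.0211), in agonist than in GPR39 cells by -0.39 ± 0.09 (adjusted p = 0.0419) and in agonist than in mock cells by -1.03 ± 0.09 (adjusted p = 3.32e-04). It lies just inside the level that chose the members. Only its mock mean of 5.58 was above that level, beside 4.93 in GPR39 and 4.55 in agonist cells. It thus became a member through the group where it was highest. ZNF503, a repressor of the NET family, had 4.96, 4.85 and 4.89 in agonist cells, 4.96, 5.17 and 5.07 in GPR39 cells and 5.53, 5.57 and 5.57 in mock cells. It was lower than in mock cells in GPR39 cells, by -0.49 ± 0.07 (adjusted p = 0.0242), and in agonist cells, by -0.65 ± 0.07 (adjusted p = 9.23e-04). Agonist and GPR39 arrays overlapped, and their difference of -0.17 was not called (adjusted p = 0.22). The calls of ZNF594 and ZNF503 in GPR39 against mock were each lost on leaving out any of 5 arrays, with adjusted p up to 0.0865 and 0.108. That of ZNF594 in agonist against GPR39 was lost on leaving out any of 8 (up to 0.137).

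The count of 4 lower members in GPR39 against mock was 0 without GPR39 array 3, 1 without GPR39 array 1 or 2 or mock array 3, 2 without mock array 2 and 7 without mock array 1. In the last case ZNF767P, ZNF253 and ZNF527 joined, with changes of -0.42, -0.38 and -0.40. Without mock array 1 the lower calls over all probe sets also rose, from 141 to 907. The share called in either direction was then 3.10% of the members, beside 3.96% of all probe sets, so the rise does not set them apart. The count of 1 higher member held without each array in turn. Over all probe sets, leaving out 1 array gave 108 to 1323 calls in this comparison, against 391.

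**Figure D3:**
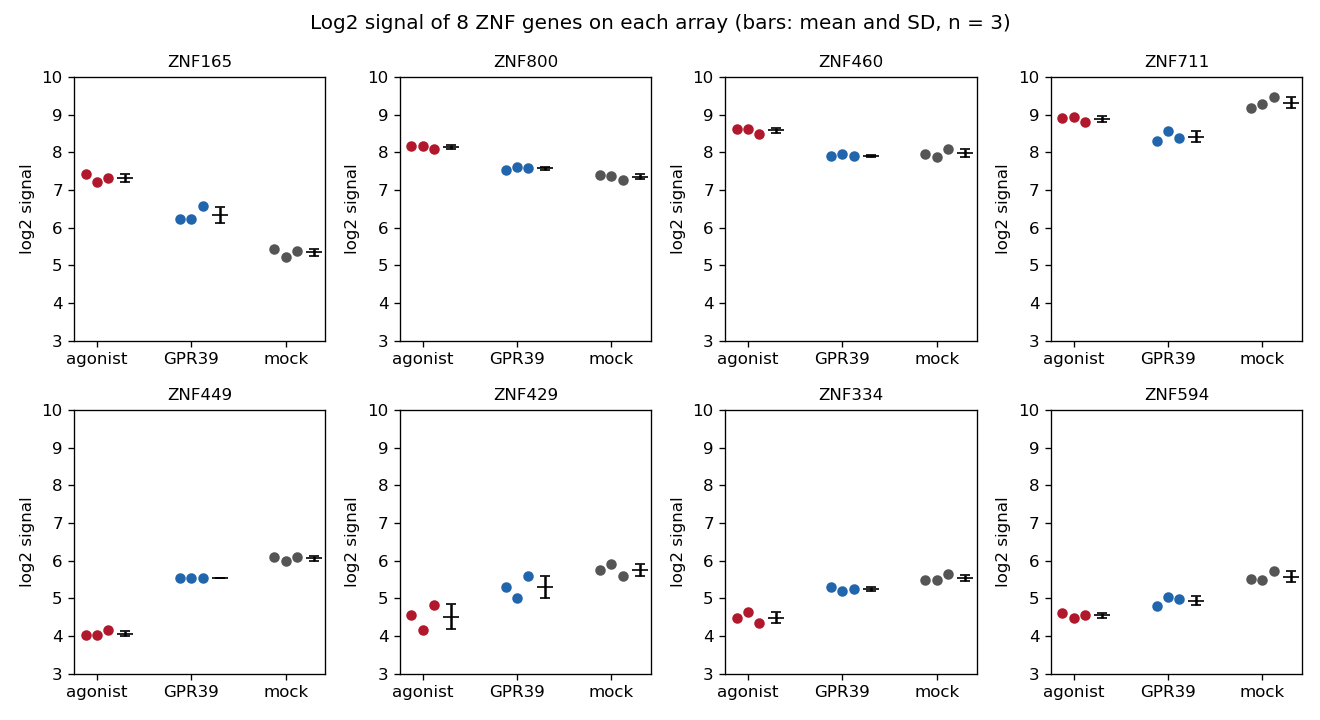
Log2 signal on every array (y axis) for 8 members, with agonist, GPR39 and mock cells from left to right, a point per array and a bar for the mean and SD beside it (n = 3). ZNF165 averages 7.32 in agonist, 6.34 in GPR39 and 5.34 in mock cells, ZNF449 averages 4.06, 5.54 and 6.07 in these groups, and ZNF711 is lowest in GPR39 cells at 8.42.

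In agonist-treated cells, KRAB genes and members of neither class changed against GPR39 cells in either direction. The largest fall besides ZNF449 was that of the KRAB gene ZNF223, and the largest rises besides ZNF165 were those of ZNF460, a KRAB gene, ZNF787 and ZNF800. Of the 159 KRAB members 6 were higher and 9 lower, and of the 69 members with neither domain 7 were higher and 7 lower. Of the 6 SCAN members ZNF165 was higher and ZNF449 lower, and of the 8 with SCAN and KRAB none was called. The not classed members had 1 higher and 2 lower of 16. The share called was 9.43% in the KRAB class, 20.3% in the class with neither domain and 18.8% of those not classed. That stands beside 9.06% of all probe sets and 20.2% of the named ones with a mean of at least 5. The KRAB share lay near that of all probe sets. The difference between the classes was not tested.

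ZNF460 had 8.62, 8.63 and 8.50 in agonist cells, against 7.90, 7.95 and 7.91 in GPR39 cells and 7.95, 7.89 and 8.10 in mock cells. It was higher in agonist than in GPR39 cells by 0.67 ± 0.08 (adjusted p = 0.00232) and than in mock cells by 0.61 ± 0.08 (adjusted p = 0.00157), while GPR39 and mock arrays overlapped. ZNF800, described as a repressor of endocrine differentiation in the intestine, had 8.18, 8.17 and 8.09 in agonist cells, 7.53, 7.61 and 7.58 in GPR39 cells and 7.41, 7.38 and 7.28 in mock cells. It was higher in agonist than in GPR39 cells by 0.57 ± 0.07 (adjusted p = 0.00246) and than in mock cells by 0.79 ± 0.07 (adjusted p = 2.35e-04). With ZNF165, these were the only 3 of the 15 higher members whose call was kept without each array in turn.

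ZNF787 had 6.02, 5.97 and 5.96 in agonist cells, against 5.37, 5.55 and 5.17 in GPR39 cells, a change of 0.62 ± 0.14 (adjusted p = 0.0308). Against mock cells, at 5.45, 5.33 and 5.81, its change of 0.45 was not called (adjusted p = 0.0673). The same pattern held for ZNF236, ZNF805 and ZNF878. They were called higher against GPR39 cells, by 0.42, 0.37 and 0.46, and not against mock cells, where the values were 0.18, 0.25 and 0.18. ZNF331, an imprinted KRAB gene, was higher by 0.35 (adjusted p = 0.0233), and ZNF749 by 0.37 (adjusted p = 0.027). ZNF622, whose product takes part in the assembly of the large ribosomal subunit, had 7.59, 7.67 and 7.52 in agonist cells, against 7.27, 7.29 and 7.19 in GPR39 cells. That is a change of 0.34 ± 0.09 (adjusted p = 0.0445). ZNF146, which consists almost only of zinc fingers, was higher by 0.29 (adjusted p = 0.0318).

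Among the lower members, ZNF223 had 4.50, 4.87 and 4.50 in agonist cells, 5.55, 5.73 and 5.78 in GPR39 cells and 5.55, 5.50 and 5.23 in mock cells. It was lower than in GPR39 cells by -1.07 ± 0.13 (adjusted p = 0.00324) and than in mock cells by -0.81 ± 0.13 (adjusted p = 0.00534). ZNF480, a KRAB gene, had 5.96, 6.23 and 6.48 in agonist cells, 7.04, 7.27 and 7.16 in GPR39 cells and 7.41, 7.16 and 7.12 in mock cells. It fell by 0.93 ± 0.14 against GPR39 cells (adjusted p = 0.00675). For these genes the agonist arrays lay apart from the arrays of the other groups, which overlapped each other.

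ZNF354C, a KRAB gene, had 4.55, 3.91 and 4.55 in agonist cells, against 5.17, 5.41 and 5.40 in GPR39 cells, a change of -0.99 ± 0.19 (adjusted p = 0.0155). It lies just inside the level that chose the members, with an agonist mean of 4.34 under that level. ZNF681 and ZNF429, KRAB genes of chromosome 19, fell by 0.85 ± 0.18 (adjusted p = 0.0252) and 0.79 ± 0.20 (adjusted p = 0.0479). ZNF334, the KRAB gene printed above, had 4.48, 4.63 and 4.33 in agonist cells, 5.29, 5.20 and 5.26 in GPR39 cells and 5.48, 5.49 and 5.63 in mock cells, and fell by 0.77 ± 0.09 against GPR39 cells (adjusted p = 0.00254). ZNF883, ZNF512 and ZNF704 fell by 0.77, 0.77 and 0.76 (adjusted p = 0.0087, 0.00371 and 0.00176). ZNF532, a fusion partner of NUT in NUT carcinoma, had 6.35, 6.44 and 6.32 in agonist cells, against 6.92, 6.85 and 6.86 in GPR39 cells, and fell by 0.51 ± 0.08 (adjusted p = 0.00653). ZNF318, whose mouse counterpart is needed for the switch to IgD transcripts in B cells, fell by 0.31 (adjusted p = 0.0318).

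Without each array in turn, 9 of the 19 lower calls were kept, those of ZNF512, ZNF480, ZNF532, ZNF248, ZNF704, ZNF223, ZNF449, ZNF883 and ZNF334. For 14 named members the call was lost without some array, with the largest adjusted p between 0.0607 for ZNF354C and 0.146 for ZNF429. The higher calls were fewer than 10 without any agonist array (5, 3 and 6 without arrays 1, 2 and 3), without any GPR39 array (4, 5 and 4) and without mock array 2 (8). The lower calls were 12 without agonist array 1 and 11, 9 and 11 without the GPR39 arrays. Over all probe sets, leaving out 1 array gave 1509 to 3119 calls against 3025, so these counts do not set the members apart.

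**Figure D4:**
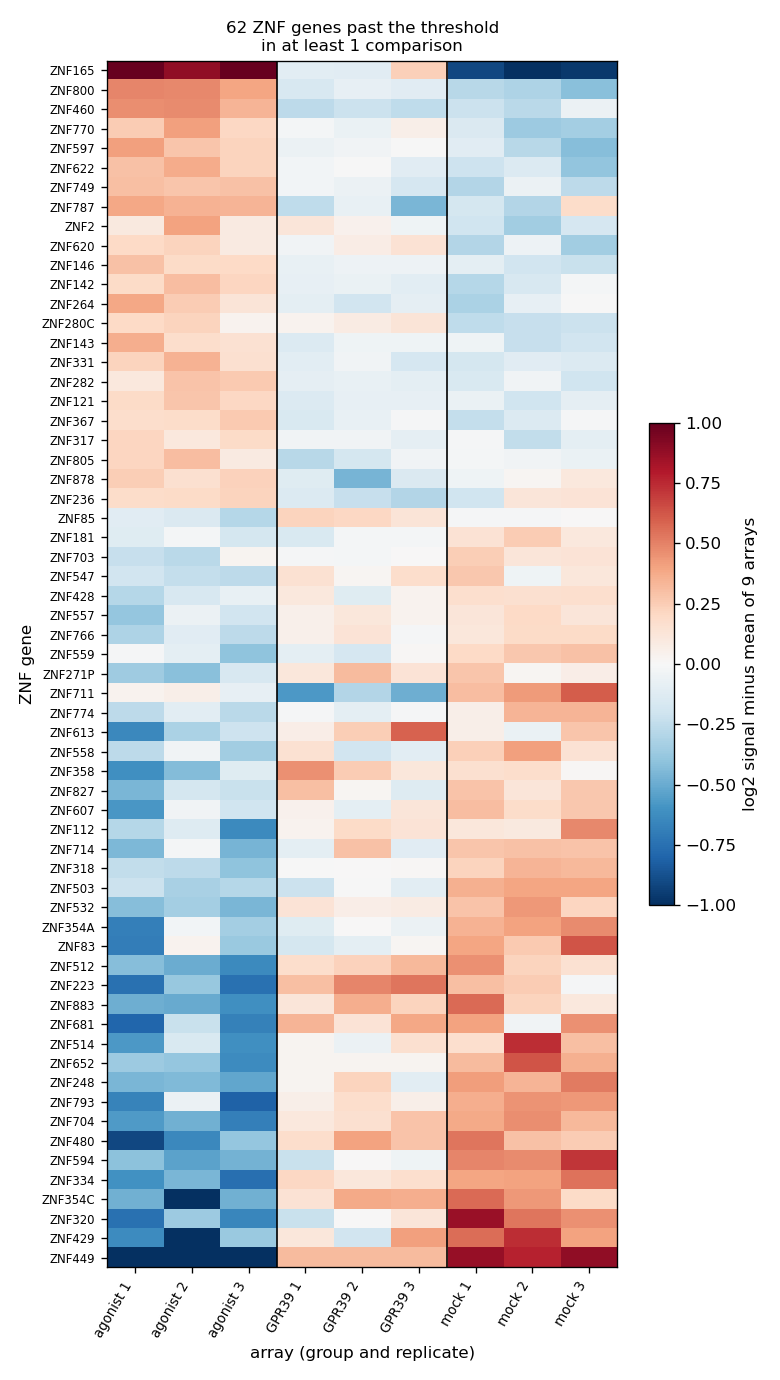
Log2 signal of the 62 members called in at least 1 comparison, a row per gene and a column per array (agonist, GPR39 and mock from left to right), as the difference from that gene's mean over the 9 arrays, with colours capped at 1 either way. Rows run from the highest to the lowest change in agonist against mock, from ZNF165 at 1.98 to ZNF449 at -2.00, and ZNF711 stands out in GPR39 cells by its low values.

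Sorted by pattern, 2 members were lower in all 3 comparisons (ZNF449 and ZNF594) and 1 was higher in all 3 (ZNF165). The mean of ZNF594 reached the level of 5 only through mock cells, where it was highest. There were 15 that were lower and 9 that were higher in both agonist comparisons while not called in GPR39 against mock. A further 18 were lower and 9 higher against mock alone, and 4 were higher and 2 lower against GPR39 alone. Without mock array 1, ZNF449 was the only member lower and ZNF165 the only one higher in all 3, 12 were lower and 8 higher in the agonist comparisons alone, 13 and 9 against mock alone and 5 and 4 against GPR39 alone. Absence of a call in 1 comparison does not show that the changes differed. The patterns were not counted over all probe sets, so these counts do not set the members apart.

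In agonist against mock, the comparison with the most calls, the KRAB genes ZNF429 and ZNF320 had the largest falls after ZNF449. ZNF429 had 4.56, 4.15 and 4.81 in agonist cells, 5.30, 5.00 and 5.59 in GPR39 cells and 5.74, 5.92 and 5.59 in mock cells, and was lower than in mock cells by -1.25 ± 0.20 (adjusted p = 0.00477). ZNF320 had 5.03, 5.41 and 5.12 in agonist cells, against 6.64, 6.30 and 6.23 in mock cells, a change of -1.20 ± 0.15 (adjusted p = 0.0014). Its GPR39 arrays, at 5.55, 5.78 and 5.89, lay between them, and neither shorter step was called (adjusted p = 0.0588 and 0.0979). For ZNF429 likewise the GPR39 mean lay between the other means, though its arrays overlapped those of mock cells.

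ZNF354C, ZNF334, ZNF480 and ZNF704 fell by 1.09, 1.05, 1.01 and 0.97 against mock cells (adjusted p = 0.00599, 2.49e-04, 0.00254 and 2.38e-04). The KRAB gene ZNF793 fell by 0.93 (adjusted p = 0.00922). ZNF681 fell by 0.84 (adjusted p = 0.0176), a call lost on leaving out any of 4 arrays (up to 0.0601). ZNF248, also of the KRAB class, had 5.68, 5.70 and 5.62 in agonist cells, against 6.56, 6.48 and 6.66 in mock cells, and fell by 0.90 ± 0.10 (adjusted p = 6.89e-04). A dimmer probe set of ZNF248, with a mean of 2.60, moved the other way by 0.38 (adjusted p = 0.0419), so the probe sets of this gene disagree. With their mean ZNF248 was called neither against mock cells (adjusted p = 0.0857) nor against GPR39 cells (adjusted p = 0.184). Among genes of described function, ZNF318 fell by 0.60, ZNF532 by 0.72, ZNF827 by 0.51 and ZNF703 by 0.33. ZNF827 recruits the NuRD complex to telomeres and ZNF703 is amplified in breast cancer. The calls of ZNF827 and ZNF703 were lost on leaving out any of 6 and any of 8 arrays, with adjusted p up to 0.0928 and 0.129.

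On the higher side, ZNF770 had 7.99, 8.14 and 7.94 in agonist cells, against 7.58, 7.36 and 7.39 in mock cells, a change of 0.58 ± 0.09 (adjusted p = 0.00383). The imprinted KRAB gene ZNF597 had 7.08, 6.95 and 6.89, against 6.55, 6.39 and 6.24, a change of 0.57 ± 0.09 (adjusted p = 0.00477). ZNF622, ZNF749, ZNF146 and ZNF331 were higher by 0.54, 0.49, 0.40 and 0.39. ZNF2 and ZNF620, both KRAB genes, were higher by 0.43 and 0.40 (adjusted p = 0.0265 and 0.0275). ZNF143, an activator of snRNA and many protein-coding promoters, had 7.39, 7.20 and 7.18 in agonist cells, against 6.98, 6.79 and 6.84 in mock cells. It was higher by 0.39 ± 0.09 (adjusted p = 0.019), a call lost on leaving out any of 3 arrays (up to 0.0696). ZNF2 and ZNF620 likewise lost theirs on leaving out any of 2 and any of 4 arrays (up to 0.092 and 0.0808).

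In this comparison 19 of the 37 lower and 12 of the 19 higher calls were kept without each array in turn. The lower count was 20 without agonist array 1, 21 without mock array 3 and 24 without mock array 2. Without mock array 1 there were 18 higher and 30 lower members, or 18.6%. That stands beside 14.8% of all probe sets and 27.7% of the named ones with a mean of at least 5. Over all probe sets, leaving out 1 array gave 3493 to 4947 calls against 5022, so these drops do not set the members apart. No call of a member turned its direction under any alternative run, in any comparison.

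By class, 9 of the 159 KRAB members were higher and 20 lower in agonist against mock, with a median change of -0.10. Of the 69 with neither domain, 8 were higher and 12 lower, with a median of -0.01. The 8 members with SCAN and KRAB had a median of 0.17 and no call. Of the 6 with SCAN, ZNF165 was higher and ZNF449 lower, and of the 16 not classed 1 was higher and 4 lower. On chromosome 19, 7 of 128 were higher and 18 lower with a median of -0.08, and on the other chromosomes 12 of 130 were higher and 19 lower with a median of -0.02. Of the 42 members on the list of described function, 4 were higher and 5 lower. The shares called were 18.2% for KRAB, 29.0% for neither domain, 19.5% on chromosome 19, 23.8% elsewhere and 21.4% for described function. These 5 shares lay between the 15.0% of all probe sets and the 31.5% of the named ones with a mean of at least 5, and differences between them were not tested. Leaving out mock array 1 gave counts, higher and lower, of 7 and 17 for KRAB, 8 and 8 for neither domain, 6 and 11 on chromosome 19, 12 and 19 elsewhere and 4 and 3 for described function. The share on chromosome 19 was then 13.3%, under the 14.8% of all probe sets.

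**Figure D5:**
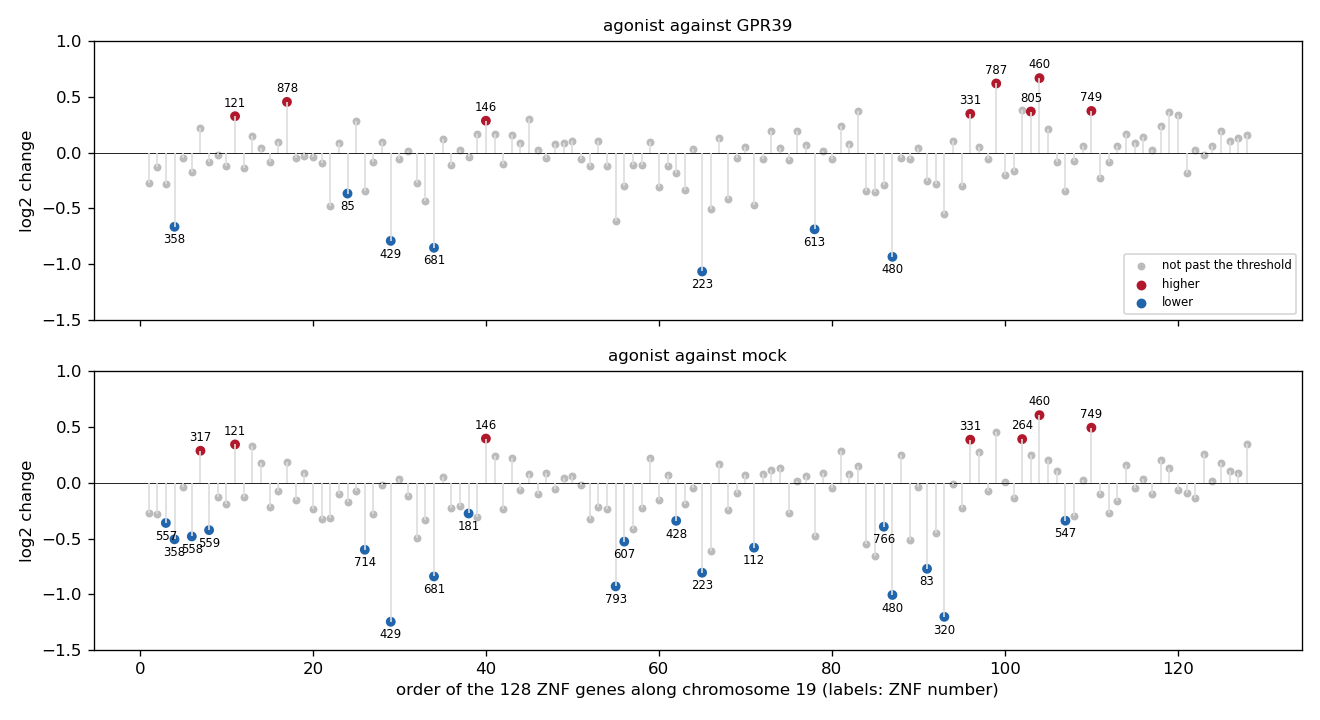
Log2 change (y axis) for the 128 members on chromosome 19 in their order along it (x axis, rank), in agonist against GPR39 above and agonist against mock below, with called members in red (higher) or blue (lower) under their ZNF number and the rest in grey. Called members of either sign stand among uncalled ones in each panel, in agonist against mock from -1.25 for ZNF429 to 0.61 for ZNF460.

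Among the members, 72 pairs were next to each other among protein-coding genes in RefSeq (GRCh38.p14), 56 of them on chromosome 19. Such pairs may share paralogous sequence and hence probe binding. Across these pairs the changes of neighbours correlated at 0.03 in GPR39 against mock, 0.24 in agonist against GPR39 and 0.21 in agonist against mock. They had the same sign in 40, 42 and 37 of the 72 pairs. The pairs with a call in each gene were few. ZNF805 and ZNF460 were higher together in agonist against GPR39, by 0.37 and 0.67. In agonist against mock ZNF766 and ZNF480 were lower together, by -0.39 and -1.01, while ZNF514 and ZNF2 moved apart, by -0.85 and 0.43.

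Over the 9 arrays, the members most like ZNF449 were ZNF334, with a Pearson r of 0.977, ZNF704 with 0.975, ZNF532 with 0.969, ZNF248 with 0.956 and ZNF480 with 0.941. Those most opposite were ZNF800 with -0.994, ZNF146 with -0.971, ZNF749 with -0.956, ZNF622 with -0.952 and ZNF165 with -0.950. These coefficients describe 9 arrays in 3 groups and mainly restate the order of the group means.

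In the promoter windows, the ETS motif was in 4 of the 18 matched members higher in agonist against mock, 2 of the 29 lower and 30 of the 184 not called. The AP-1 motif was in 2 of the 18, 3 of the 29 and 5 of the 184, and the cAMP response element in 2, 1 and 8. Counts of this size were not tested.

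The corepressor through which KRAB proteins act was measured too. TRIM28 had 9.34, 9.19 and 9.34 in agonist cells, 9.35, 9.34 and 9.33 in GPR39 cells and 9.45, 9.34 and 9.20 in mock cells, and no comparison called it (adjusted p = 0.78 to 0.974). On a list of 25 partners of this pathway, 22 had a named probe set. SETDB1, SMARCAD1 and TASOR had none, so they were not read here. Of the 22, 0 were called in GPR39 against mock and 1 was higher and 2 lower in agonist against GPR39. In agonist against mock 2 were higher and 3 lower. The shares of 13.6% and 22.7% in the agonist comparisons lay between those of all probe sets, 9.06% and 15.0%, and those of the named ones with a mean of at least 5, 20.2% and 31.5%. With mock array 1 left out, 0 were called in GPR39 against mock, and 3 were higher and 2 lower in agonist against mock. EHMT2, an H3K9 methyltransferase (G9a), had 6.40, 6.47 and 6.58 in agonist cells, against 7.09, 7.07 and 7.09 in GPR39 cells and 7.44, 7.39 and 7.18 in mock cells. It was lower by -0.60 ± 0.09 (adjusted p = 0.00533) and -0.85 ± 0.09 (adjusted p = 5.53e-04). The deacetylase HDAC1 was lower in agonist than in GPR39 cells by -0.34 ± 0.06 (adjusted p = 0.0172). MORC3, an ATPase of chromatin silencing, was higher by 0.55 ± 0.11 (adjusted p = 0.0198). Against mock cells CBX5, which encodes HP1 alpha, was lower by -0.31 (adjusted p = 0.0444), MORC2 higher by 0.35 (adjusted p = 0.014), HDAC1 lower by -0.32 and MORC3 higher by 0.69.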

How the data were processed

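Single-colour arrays of 9 HEK293 samples in 3 labelled groups of 3 were used. Values were deposited on a log2 scale, as their range of 0.717 to 13.5 shows, and the authors made them with MAS5, per the submitters' processing notes. Not given in the sources used here are its version, the background correction and any normalization between arrays. The design foresaw linear or log2 values, and the log2 values were used as deposited. Of 53617 probe sets, the platform annotation gives 1 symbol for 16098, several for 0 and none for 37519. RefSeq (GRCh38.p14) updated the symbols by Entrez identifier.

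A probe set was tested if at least 3 arrays put it over their own 40th percentile, which kept 33376. limma 3.58.1 in R 4.3.3 fitted all arrays together (lmFit and eBayes, 6 residual and 2.12 prior degrees of freedom, two-sided, Benjamini-Hochberg, threshold 0.05), and the steps were tested on simulated data. Errors after a change are SEs of that fit. The number of arrays limits the precision.

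Named members are, per comparison, the 10 largest rises and the 10 largest falls among called members without overlap, the 5 highest means, the genes next to the level of 5, called members of described function and those most like ZNF449. The lack of overlap in those rises and falls is part of the choice and no support for them. Genes in patterns, in neighbour pairs and among those gained without mock array 1 were named after their values were seen. The members and lists were chosen with earlier results of these data known. Alternatives were the scaling, the filter, the level, the probe set rule, limma's options, the samples fitted and leaving out each array.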

Additional observations from a re-analysis of the deposited data

How the results depend on the processing

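Each alternative changed 1 choice. For GPR39 against mock, the 391 probe sets called became 190 when only the groups compared were fitted, 637 with a filter at the 60th percentile, 663 with limma's trend and robust options, 969 with array weights and 150 with the replicate block. Of its members, 2 (groups compared only), 1 (block) and 1 (level of 6) were lower against 4, and 2 (60th percentile, robust, array weights) or 0 (mean of a gene's probe sets) higher against 1. Its median of -0.0452 was 0.0114 with 75th-percentile centring and -0.0106 at a level of 6. For agonist against GPR39, probe sets called were 1819 with the block against 3025, higher members 9 with no filter and 5 with the block against 15, and lower members 10 at a level of 6 against 19. Its median of -0.0276 was -0.0759 with median centring and 0.0337 at a level of 6. For agonist against mock, probe sets called were 3133 with the groups compared only against 5022, lower members 22 and higher 11 in that fit and lower members 14 at a level of 6. Its median of -0.0607 was -0.0986 with median centring, 0.0099 with 75th-percentile centring, -0.0073 with quantile normalization and 0.0383 at a level of 6. With 75th-percentile centring all probe sets split into 2771 higher and 2159 lower in this comparison, against 2039 and 2983, and into 310 and 105 in GPR39 against mock, against 250 and 141. Leaving out 1 array gave 108 to 1323, 1509 to 3119 and 3493 to 4947 probe sets, 0 to 7, 9 to 19 and 20 to 36 lower members, 1 to 1, 3 to 14 and 14 to 18 higher members, and medians of -0.0497 to -0.0364, -0.0402 to -0.0086 and -0.0804 to -0.0359, in the order above. A level of 6 left 131 members. Same-numbered arrays correlated at -0.10 to 0.06 in their deviations from the group means, and differently numbered ones at -0.13 to 0.12. That shows no sign of pairing by replicate number but cannot settle whether the arrays were paired. The cause of these shifts was not tested.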

Other observations

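Below the level of 5, 178 of the 213 remaining ZNF genes were tested. In GPR39 against mock 0 were higher and 2 lower, in agonist against GPR39 2 and 8, and in agonist against mock 4 and 23. The shares of 1.12%, 5.62% and 15.2% compare with 1.17%, 9.06% and 15.0% of all probe sets tested, so they lay near or under these. Without mock array 1 the counts against mock were 1 and 2 for GPR39 and 2 and 19 for agonist. ZNF235 had 3.42, 3.42 and 3.17 in agonist cells, 4.09, 4.03 and 4.09 in GPR39 cells and 4.90, 4.81 and 5.01 in mock cells, without overlap. It was lower in all 3 comparisons, by -0.73 in agonist against GPR39, by -0.84 in GPR39 against mock and by -1.57 in agonist against mock (limma, adjusted p = 0.00304, 0.0055 and 2.95e-05). ZNF221 had 4.02, 3.94 and 3.84 in agonist cells, 4.24, 4.04 and 3.91 in GPR39 cells and 4.99, 5.22 and 5.29 in mock cells. It was lower than in mock cells by -1.10 in GPR39 cells (adjusted p = 0.00465) and by -1.23 in agonist cells (adjusted p = 3.46e-04). ZNF536, at 3.98, 3.55 and 3.58 in agonist cells against 2.74, 3.02 and 2.86 in GPR39 cells, was higher by 0.83 (adjusted p = 0.00944). ZNF235 and ZNF536 were named after their values were seen.

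Zinc finger families outside the ZNF symbol were counted for genes with a mean of at least 5, beside 31.5% of all named probe sets at that level called in agonist against mock. Of 10 KLF genes 3 were higher and 1 lower there, as they were without mock array 1. KLF5 averaged 6.99 ± 0.16 in agonist, 6.02 ± 0.04 in GPR39 and 5.35 ± 0.01 in mock cells (SD, n = 3 each), and was higher in every comparison (limma, adjusted p = 6.61e-04, 0.0116 and 1.72e-05 for agonist against GPR39, for GPR39 against mock and for agonist against mock). KLF10 averaged 8.07 in agonist, 7.71 in GPR39 and 7.34 in mock cells. KLF7 was lower in agonist than in GPR39 cells by -0.68 (adjusted p = 0.0199), and KLF12 was lower in agonist than in mock cells by -0.86 (adjusted p = 0.0169), while KLF4 was higher there by 0.38 (adjusted p = 0.0429). Of 28 ZBTB genes, 6 were higher and 3 lower in agonist against mock (32.1%), with ZBTB21 higher by 0.83 and ZBTB8B lower by -0.64. Of 9 ZFP genes 0 were higher and 3 lower there (33.3%), with ZFP90 and ZFP62 lower by -1.05 and -1.16. Of 18 ZSCAN and ZKSCAN genes 0 were higher and 3 lower (16.7%). Leaving out mock array 1 gave 6 and 2 for ZBTB, 0 and 3 for ZFP and 1 and 3 for ZSCAN and ZKSCAN. KLF4, KLF7, KLF12 and ZBTB8B were named after their values were seen.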
